A study of Mus musculus with 19 samples.

Results

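The genes described here form the RIG-I type RNA sensing pathway: 10 mouse genes, of 55487 listed in the gene tables, taken by symbol from the Ensembl identifiers. They are the sensors Ddx58, Ifih1 and Dhx58, the ubiquitin ligases Rnf135, Trim25 and Trim6, the adaptor Mavs, the kinases Tbk1 and Ikbke, and the transcription factor Irf3. The genes were chosen by function and by measured values, since Ddx58, Rnf135 and Trim6 were selected on their higher counts after inhibition of miR-146a in cultured motor neurons. Values from the cultures are therefore given as a description and support nothing. All 10 genes passed the filter on low counts in both materials.

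The series concerns miR-146a in the degeneration of motor neurons and holds 19 RNA sequencing libraries from mouse. Spinal cords labelled miR-146a KO gave 9 libraries and spinal cords labelled miR-146a WT gave 4. Motor neurons of wild-type genotype, made from RW.4 mouse embryonic stem cells with retinoic acid and SAG, a Smoothened agonist, gave 3 libraries after transfection with a miR-146a LNA and 3 after a control LNA, each at 10 nM for 72 h with Lipofectamine 2000. An LNA is a chemically stabilised oligonucleotide that pairs with a microRNA and blocks it. The labels give neither age, sex, strain nor batch, and do not say how the KO allele was made, so whether it is absent from every cell is not known from them. All 6 cultures come from 1 cell line. Separate animals or cultures behind the libraries of a group are not stated, so each p-value covers the spread between libraries alone.

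RIG-I, encoded by Ddx58, binds short double-stranded RNA with a triphosphate end, and MDA5, encoded by Ifih1, binds long double-stranded RNA. Both then engage MAVS on the mitochondrial surface, which brings TBK1 and IKK-epsilon to IRF3, and phosphorylated IRF3 enters the nucleus to induce type I interferon. Interferon in turn raises transcription of the sensors themselves. In the central nervous system microglia, astrocytes and neurons all hold parts of the pathway, and mutations of human TBK1 are a known cause of motor neuron disease. In mouse macrophages, miR-146a was reported to be induced downstream of RIG-I and to repress Traf6, Irak1 and Irak2.

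The mature strand of miR-146a is shown because its seed, bases 2 to 8 and printed in capitals, sets which messages can pair with it. It lies on the minus strand of chr11:43374435-43374456 (GRCm38.p6, sequence from RefSeq). The second microRNA of the family, from the plus strand of chr19:46342790-46342811, carries the same seed.
mmu-miR-146a-5p: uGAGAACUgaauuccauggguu
mmu-miR-146b-5p: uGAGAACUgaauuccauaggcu

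Sites were searched in the longest annotated 3′ UTR of each gene as AGTTCTCA (8mer), AGTTCTC (7mer-m8) or GTTCTCA (7mer-A1), each match counted once under its longest form. Of the 10 genes, 2 held a match (20%), against 21.4% of the 16103 tested genes with a 3′ UTR. Trim25 held 2 of the 7mer-m8 kind in a UTR of 3572 bases, and 44.0% of genes with a UTR of 0.8 to 1.25 times that length held a match. Tbk1 held an 8mer in 2497 bases, where the share among genes of similar UTR length was 32.6%. Ddx58 (961 bases), Rnf135 (664 bases) and Trim6 (2220 bases) had no match in these windows. The matches of Trim25 at chr11:89017531-89017537 and chr11:89019911-89019917 (plus strand) and of Tbk1 at chr10:121554011-121554018 (minus strand, GRCm38) are printed with the match in capitals, followed by a match of Irak1 at chrX:74015393-74015400 (minus strand) and of Traf6 at chr2:101697959-101697966 (plus strand), which are reported miR-146a targets.
Trim25, first match: ccctcttcaaggggcAGTTCTC
Trim25, second match: atgagtgcgtgtttaAGTTCTC
Tbk1: tgctgagactttccAGTTCTCA
Irak1: gactcagaggtcaaAGTTCTCA
Traf6: ccgctctggtgttgAGTTCTCA

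A match is a description of letters, not of binding. Irak1 held 3 matches, of which 2 were 8mers, and Traf6 held 4 8mers. Irak1 averaged 49.5 ± 5.57 normalised CPM in KO cords (SD, n = 9) and 45.3 ± 1.63 in WT cords (SD, n = 4), and Traf6 averaged 30.1 ± 3.28 in KO cords and 27.8 ± 2.61 in WT cords. In the cultures, Irak1 stood at 37.0, 36.8 and 35.1 normalised CPM after the miR-146a LNA, against 32.9, 33.3 and 33.1 after the control LNA. Traf6 stood at 44.5, 47.7 and 45.1 after the miR-146a LNA, against 42.7, 49.5 and 50.2 after the control LNA. Neither gene was called in cords or cultures by edgeR (adjusted p = 0.47 and 0.264 for Irak1, 0.554 and 0.729 for Traf6). Normalised CPM means each count scaled to its library's total, after TMM adjustment within cords or within cultures.

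Promoters were searched for the core of the interferon-stimulated response element (GAAA, any 2 bases, then GAAA again) on both strands of RefSeq windows reaching from 250 bases before the gene start to 50 after it. Of the 9 genes with a window, 2 held a match, Ddx58 and Ifih1. The share was 3.99% among 27025 genes and 17 of 29 (58.6%) among interferon-stimulated genes outside the 10. The match of Ddx58 lies 3 to 12 bases after the gene start on the opposite strand, within chr4:40239776-40240075, and that of Ifih1 lies 33 to 42 bases after the start, within chr2:62646206-62646505 (both minus strand, GRCm38.p6). Each is shown in capitals with its neighbouring bases, since both are RNA sensors known to be induced by interferon.
Ddx58: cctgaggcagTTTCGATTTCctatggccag
Ifih1: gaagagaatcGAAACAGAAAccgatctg

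Ddx58 (ENSMUSG00000040296) spans 40203773 to 40239828 on chromosome 4, Ifih1 62595798 to 62646255 and Mavs 131234063 to 131248025 on chromosome 2, Tbk1 121546455 to 121586787 on chromosome 10, and Ikbke 131254343 to 131279606 on chromosome 1 (GRCm38). Irf3 spans 44997648 to 45002848 and Trim6 104218793 to 104235152 on chromosome 7. Rnf135 (80183851 to 80199757), Trim25 (88999376 to 89020293) and Dhx58 (100694884 to 100704271) share chromosome 11 with Mir146, the miR-146a precursor gene, at distances of 36.8, 45.6 and 57.3 Mb. The strand setting of the counting is not given in the sources used here, so reads of overlapping genes may be shared. Irf3 overlaps Bcl2l12 on the other strand over 1065 bases, and Bcl2l12 averaged 1.78 normalised CPM in cords and 1.47 in cultures. Dhx58 overlaps Dhx58os, Ikbke overlaps Gm28914 and Gm28913, and Trim6 overlaps the pseudogene Gm8667, all at means of 0.259 normalised CPM or less. Trim6 also has close relatives beside it in the genome, so its counts depend on how shared reads were dropped.

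The 13 cord libraries held 28163289 to 39577247 counts and the 6 culture libraries 40647549 to 65471742. A gene at 3 counts therefore has 0.0758 to 0.1065 CPM in a cord library and 0.0458 to 0.0738 in a culture, limits that cover counting error only. Mir146 had 1 count in KO cords and 0 in the other 3 groups, so the precursor checks no label. Pttg1, a neighbour of Mir146, stood at 1.06 to 1.81 normalised CPM in KO replicates 1 to 8, against 14.9 to 17.4 in WT cords, but at 13.04 in the library labelled KO replicate 9, which there goes against its label and had Sod1 at 1947 normalised CPM against 191 to 263 in the other KO cords. KO replicate 7 held the skeletal muscle actin Acta1 at 2564 normalised CPM, against at most 6.03 in every other cord. Neuronal markers were present in both materials, and those of motor neurons summed to 3000 to 3169 normalised CPM after the miR-146a LNA and 2977 to 3079 after the control LNA. Cords held 220 to 491 in the KO group and 309 to 378 in the WT group.

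In the cords, the 3 RNA sensors, the ligase Trim25 and the kinase Ikbke had higher means in KO libraries than in WT libraries, while the adaptor Mavs, the kinase Tbk1 and Irf3 had nearly equal means. Ddx58 and Trim25 lay above every WT cord in 9 of 9 KO cords, by 1.66 and 1.65 times in the means. Ikbke had the largest difference, 2.77 times in the means, carried in large part by KO replicate 7. Mavs, Tbk1 and Irf3 differed by 1.05, 0.983 and 1.04 times. None of the 10 genes passed the adjusted threshold of 0.05 in edgeR's quasi-likelihood test, which called 0 of 22174 genes (0%). At an unadjusted p below 0.05, 4 of the 10 were higher, Ddx58, Rnf135, Trim25 and Ikbke, against 7.53% of all genes, and 0 were lower, against 6.8%. DESeq2, which called 1.4% of genes higher and 0.32% lower, called 0 of the 10, and limma with quality weights called 0 of the 10. Groups that did not overlap with KO higher were seen for 2 of the 10, against 0.505% of all genes. The median log2 fold change was 0.56 over the 10 and 0.02 over all genes.

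Among the sensors, Ddx58 showed the tightest WT values. It stood at 8.61 normalised CPM in the lowest of 9 KO cords, 10.5 in the median and 26.5 in the highest, against 7.96, 7.49, 8.06 and 7.42 in the WT cords. The groups did not overlap, and KO replicates 7 and 1, at 26.5 and 17.9, stood above the rest. Its log2 fold change was 0.73 (SE 0.28; edgeR adjusted p = 0.3), and 0.53 without KO replicate 7. Without KO replicates 7 and 9 together it was 0.58 (SE 0.16; edgeR adjusted p = 0.159).

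Ifih1, the sensor of long double-stranded RNA, stood at 5.51, 9.71 and 25.7 normalised CPM in the lowest, median and highest KO cord, against 6.81, 6.81, 7.46 and 5.96 in the WT cords. In 6 of 9 KO cords it lay above every WT cord, and KO replicate 2 lay below them all. The log2 fold change was 0.71 (SE 0.36; edgeR adjusted p = 0.377), against 0.46 without KO replicate 7. Dhx58 encodes LGP2, which lacks the signalling domain of the other sensors and tunes their activity. Its values were 2.21, 3.63 and 8.62 normalised CPM in the lowest, median and highest KO cord, against 4.13, 1.70, 1.95 and 2.72 in the WT cords. The groups overlapped widely, only KO replicates 7 and 1 standing above every WT cord, and KO minus WT on the log2 scale was 0.70 (SE 0.36; edgeR adjusted p = 0.377).

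Of the 3 ubiquitin ligases, Trim25 had the clearer separation of groups, Rnf135 overlapped, and Trim6 was near the limit of detection. Trim25, whose product was reported to attach ubiquitin to RIG-I, stood at 14.2, 17.9 and 39.3 normalised CPM in the lowest, median and highest KO cord, against 11.9, 13.3, 11.9 and 12.5 in the WT cords. Its groups did not overlap. The log2 fold change was 0.72 (SE 0.25), with an adjusted p of 0.292 with edgeR and 0.0753 with DESeq2, and it was 0.55 without KO replicate 7.

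Rnf135 encodes Riplet, the ligase known to be needed for RIG-I activation. It stood at 3.44, 4.97 and 5.93 normalised CPM in the lowest, median and highest KO cord, against 3.20, 4.14, 3.87 and 2.89 in the WT cords. In 6 of 9 KO cords it exceeded every WT cord, and the library labelled KO replicate 9 was the lowest of its group. The log2 fold change was 0.41 (SE 0.16; edgeR adjusted p = 0.302). Trim6, reported in human cells to make free ubiquitin chains that activate IKK-epsilon, stood at 0.370 normalised CPM in the median KO cord and 0.851 in the highest. KO replicate 3 had 0 counts, which allows up to 0.0818 CPM. The WT cords had 0.684, 0.284, 0.157 and 0.172 normalised CPM, from 5 to 22 counts, so the ranges overlapped. Its log2 fold change of 0.25 (SE 0.71; edgeR adjusted p = 0.894) turned to -0.63 with limma and to -0.10 without KO replicates 7 and 9. On leaving out 1 library it ran from 0.026 without WT replicate 3 to 0.914 without WT replicate 1.

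Mavs, the adaptor on which both signalling sensors converge, stood at 16.0, 17.8 and 24.0 normalised CPM in the lowest, median and highest KO cord, against 15.0, 18.7, 18.6 and 18.99 in the WT cords. WT replicate 1 lay apart from the other WT cords, and the groups overlapped. The log2 fold change was 0.07 (SE 0.11; edgeR adjusted p = 0.795).

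The kinases behaved differently from each other. Tbk1, the broadly expressed kinase of IRF3, stood at 36.3, 42.9 and 45.3 normalised CPM in the lowest, median and highest KO cord, against 43.1, 40.9, 44.7 and 43.5 in the WT cords. Its log2 fold change was -0.02 (SE 0.06; edgeR adjusted p = 0.876), and 2 KO cords lay above and 2 below every WT cord. Ikbke encodes IKK-epsilon, the kinase known to be induced in immune cells. It stood at 2.86, 5.45 and 30.1 normalised CPM in the lowest, median and highest KO cord, against 3.17, 2.36, 3.30 and 2.75 in the WT cords. In 8 of 9 KO cords it exceeded every WT cord, with KO replicate 2 inside the WT range and KO replicate 7 far above the next highest, replicate 4 at 8.51. The log2 fold change was 1.47 (SE 0.59; edgeR adjusted p = 0.313), but 0.88 (SE 0.23; edgeR adjusted p = 0.276) without KO replicate 7. Irf3, the factor that TBK1 phosphorylates, stood at 22.6, 26.98 and 29.02 normalised CPM in the lowest, median and highest KO cord, against 25.8, 21.6, 27.4 and 25.3 in the WT cords. The groups overlapped, with 3 of 9 KO cords above every WT cord and WT replicate 2 below every KO cord, at a log2 fold change of 0.06 (SE 0.08; edgeR adjusted p = 0.764).

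**Figure D1:**
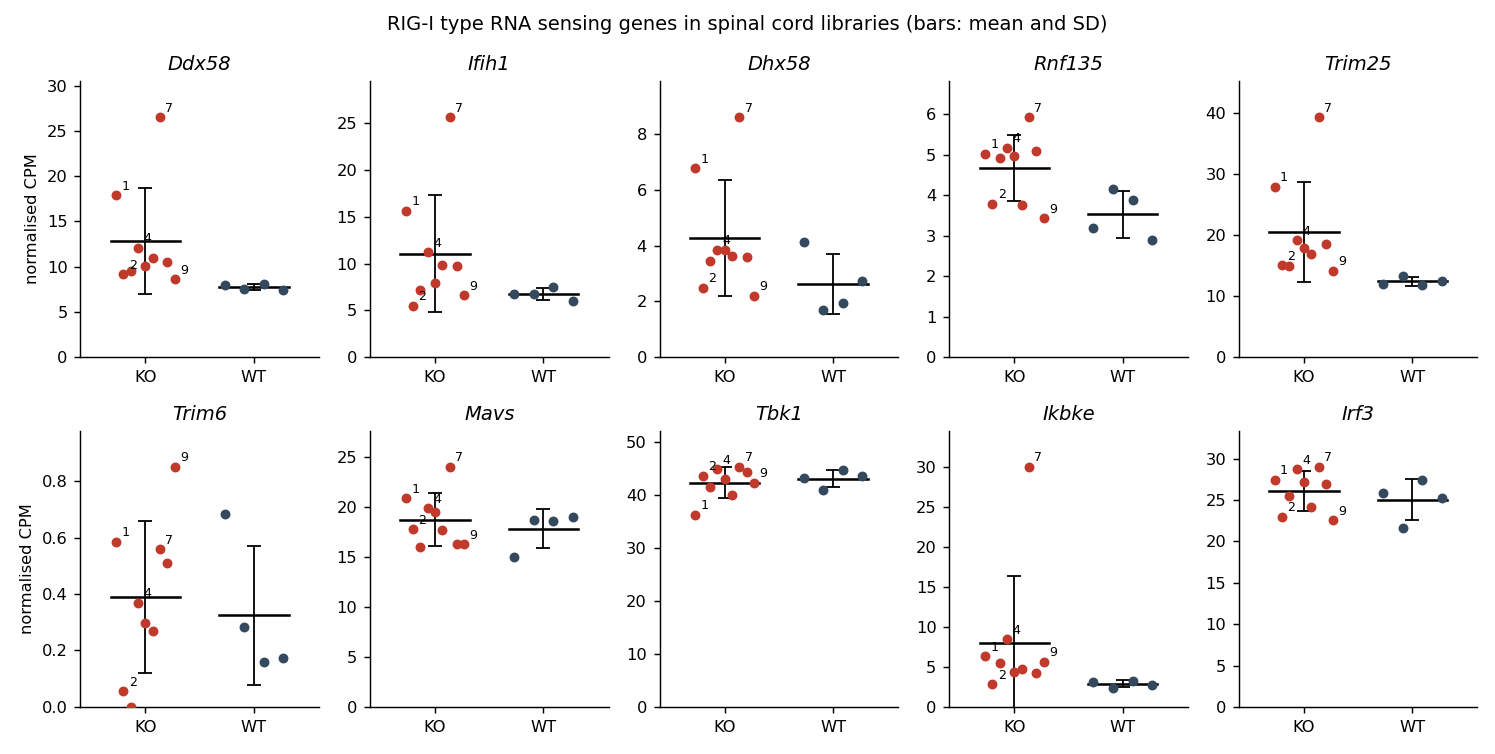
Normalised CPM (vertical axes, from 0) of the 10 genes in KO cords (red, n = 9) and WT cords (dark blue, n = 4); bars show the mean and SD, points are libraries, and KO replicates 1, 2, 4, 7 and 9 are numbered. All 9 KO cords lie above the WT cords for Ddx58 and Trim25, while Mavs, Tbk1 and Irf3 overlap.

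The same KO libraries ranked high across the genes. KO replicate 7 was among the 3 highest of 13 cords for 9 of the 10 genes, and KO replicates 1 and 4 for 8 each. These 3 libraries also held the 3 highest sums of 10 microglia markers, 1783, 1382 and 1598 normalised CPM in KO replicates 7, 1 and 4. The sum ran from 331 to 1783 over the KO cords with a median of 643, against 375 to 448.5 in the WT cords, and no marker was at 0. The 3 libraries were also the highest in astrocyte markers, at 9579, 8961 and 7907 normalised CPM in KO replicates 7, 1 and 4, against 4563 to 5653 in the WT cords. Markers of activated microglia summed to 5346, 4425 and 7007 there, against 1893 to 2157 in the WT cords. Fibroblast and meninges markers summed to 2424 in KO replicate 7 and to at most 235.5 in any other cord. Of the 10 microglia markers 10 were positive in fold change, against 53.1% of all genes, with a median log2 fold change of 1.11. At an unadjusted p below 0.05 with edgeR, 8 were higher, against 7.53% of all genes, although edgeR and DESeq2 called 0. Of the 8 astrocyte markers 5 were positive, with a median of 0.098, and 2 were higher at that p, Gfap and Slc1a3. S100b, Gja1 and Aldoc were negative, at -0.22, -0.08 and -0.06. In other marker lists DESeq2 called 6 of 10 activated microglia markers and 6 of 6 red blood cell markers higher, and 2 of 7 neuronal markers lower. It also called 2 of 6 tested pluripotency and progenitor markers higher, Mki67 and Top2a, and 1 of 10 motor neuron markers lower, Chodl. Over all genes DESeq2 called 1.4% higher and 0.32% lower. It called 0 astrocyte, fibroblast and meninges, or monocyte and neutrophil markers, and edgeR called 0 in every list. Red blood cell markers summed to 36.5 to 707 normalised CPM in KO cords, with the highest in replicate 7, against 22.7 to 44.5 in WT cords, and the sum of monocyte and neutrophil markers was 2.45 to 85.4 in KO cords against 1.93 to 4.16 in WT cords. Neuronal markers summed to 5720 to 7209 in KO cords against 6770 to 8011 in WT cords. The part of these cell types in the differences was not tested, and in bulk tissue fewer or more cells of a type cannot be told apart from less or more RNA per cell.

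KO replicate 2 had the lowest microglia sum of all cords, 331 normalised CPM, with Ddx58 at 9.19 and Trim25 at 15.1, while its Ifih1 (5.51) was the lowest of the 13 and its Ikbke (2.86) lay within the WT range. The library labelled KO replicate 9 had a microglia sum of 427, inside the WT range, with Ddx58 at 8.61 and Trim25 at 14.2, against WT highs of 8.06 and 13.3. Tbk1 was lowest of all cords in KO replicate 1 (36.3) and highest in KO replicate 7 (45.3).

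**Figure D2:**
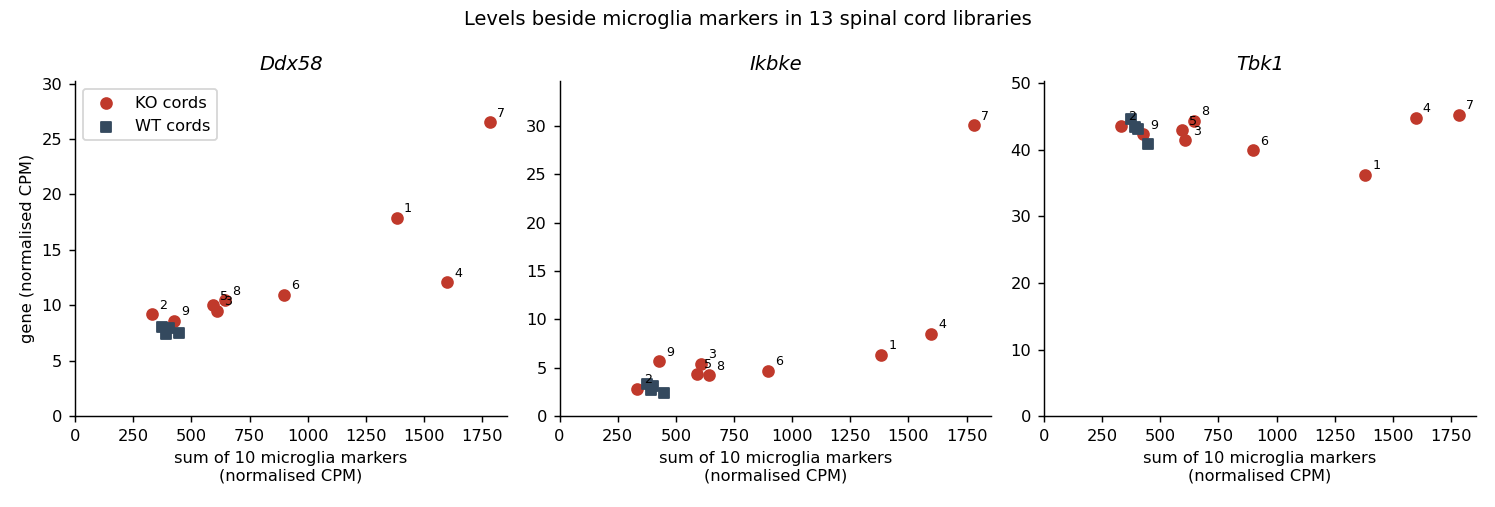
Normalised CPM of Ddx58, Ikbke and Tbk1 (vertical axes, from 0) against the sum of 10 microglia markers in normalised CPM (horizontal axes, from 0) in 9 KO cords (red circles, numbered by replicate) and 4 WT cords (dark squares). Ddx58 and Ikbke are highest in KO replicate 7, which has the highest marker sum, and Tbk1 stays between 36.3 and 45.3.

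The gene whose cord profile was most like that of Ddx58 was Trim25. Likeness was the root mean square difference in log2 normalised CPM over the 13 cords after centring each gene, among 16698 genes, with a median of 0.547 over all of them. Trim25 differed by 0.0934, followed by Mcm6 (0.132), Tubb6 (0.141), Helz2 (0.156) and Itgb1 (0.158). Helz2, for example, stood at 14.1 to 42.2 normalised CPM in KO cords against 10.5 to 14.3 in WT cords, with its highest value in KO replicate 7. Of the other genes of the pathway, Ifih1 was close (0.175, rank 13), Dhx58 farther (0.298, rank 419) and Rnf135, Mavs and Irf3 farther still (0.351, 0.398 and 0.440). Ikbke at 0.503 and Tbk1 at 0.522 differed from it by about the SD of Ddx58 itself, 0.525. The measure counts the size of a swing as well as its order over libraries. KO replicates 7, 1 and 4 held the highest values of both Ddx58 and Ikbke, while Tbk1 was lowest of all cords in KO replicate 1. These values share libraries and describe the 13 cords alone.

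In the motor neuron cultures the ligases Rnf135 and Trim6 showed the largest folds after the miR-146a LNA, 3.68 and 3.39 times in the means, followed by Ddx58 at 1.61 times. All 10 fold changes were positive (51.5% of all genes), with a median log2 fold change of 0.31 against 0.01 over all genes. edgeR called 1635 of 19099 genes (8.56%), 458 higher (2.4%) and 1177 lower (6.16%). With scaling by library size alone it called 1572, of which 741 were higher and 831 lower. The 4 called among the 10 were Ddx58, Rnf135, Trim25 and Trim6, all higher. Since the choice of genes used this contrast, nothing is read from that count. The threshold of 0.05 fell between Ddx58 (adjusted p = 0.0297 with edgeR) and Irf3 (adjusted p = 0.118 with edgeR).

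Rnf135 stood at 2.44, 1.66 and 1.39 normalised CPM after the miR-146a LNA, against 0.757, 0.311 and 0.422 after the control LNA, from 86 to 110 counts against 17 to 45. Trim6 stood at 2.68, 1.41 and 1.26 after the miR-146a LNA, against 0.673, 0.403 and 0.499 after the control LNA. Neither gene's groups overlapped, and miR-146a LNA replicate 1 was the highest library for both. The log2 fold changes were 1.86 (SE 0.36) for Rnf135 and 1.74 (SE 0.35) for Trim6. Ddx58 stood at 6.11, 5.34 and 4.09 after the miR-146a LNA, against 3.52, 3.13 and 3.03 after the control LNA, a log2 fold change of 0.68 (SE 0.19) without overlap.

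Trim25 was far more abundant here than the other ligases. It stood at 59.9, 51.2 and 48.0 normalised CPM after the miR-146a LNA, against 45.1, 41.2 and 36.1 after the control LNA, a log2 fold change of 0.38 (SE 0.09). Irf3 stood at 8.69, 8.64 and 9.19 after the miR-146a LNA, against 6.34, 8.24 and 5.87 after the control LNA, with a log2 fold change of 0.37 (SE 0.14). Both genes' groups lay apart, making 5 of the 10 genes without overlap and higher, against 12.8% of all genes, a count from which nothing is read either.

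The other 5 genes had overlapping groups. Mavs stood at 9.15, 6.58 and 5.16 normalised CPM after the miR-146a LNA, against 5.82, 5.84 and 6.24 after the control LNA. Replicate 1 of the miR-146a LNA was high and replicate 3 lay below every control. Tbk1 ranged from 64.8 to 77.4 after the miR-146a LNA and from 66.4 to 68.9 after the control LNA. The sensors Ifih1 and Dhx58 and the kinase Ikbke were low, at 0.195 to 1.12 normalised CPM over both groups and from 8 to 49 counts. Their log2 fold changes, 0.20, 0.25 and 0.08, had SEs of 0.41, 0.50 and 0.46.

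**Figure D3:**
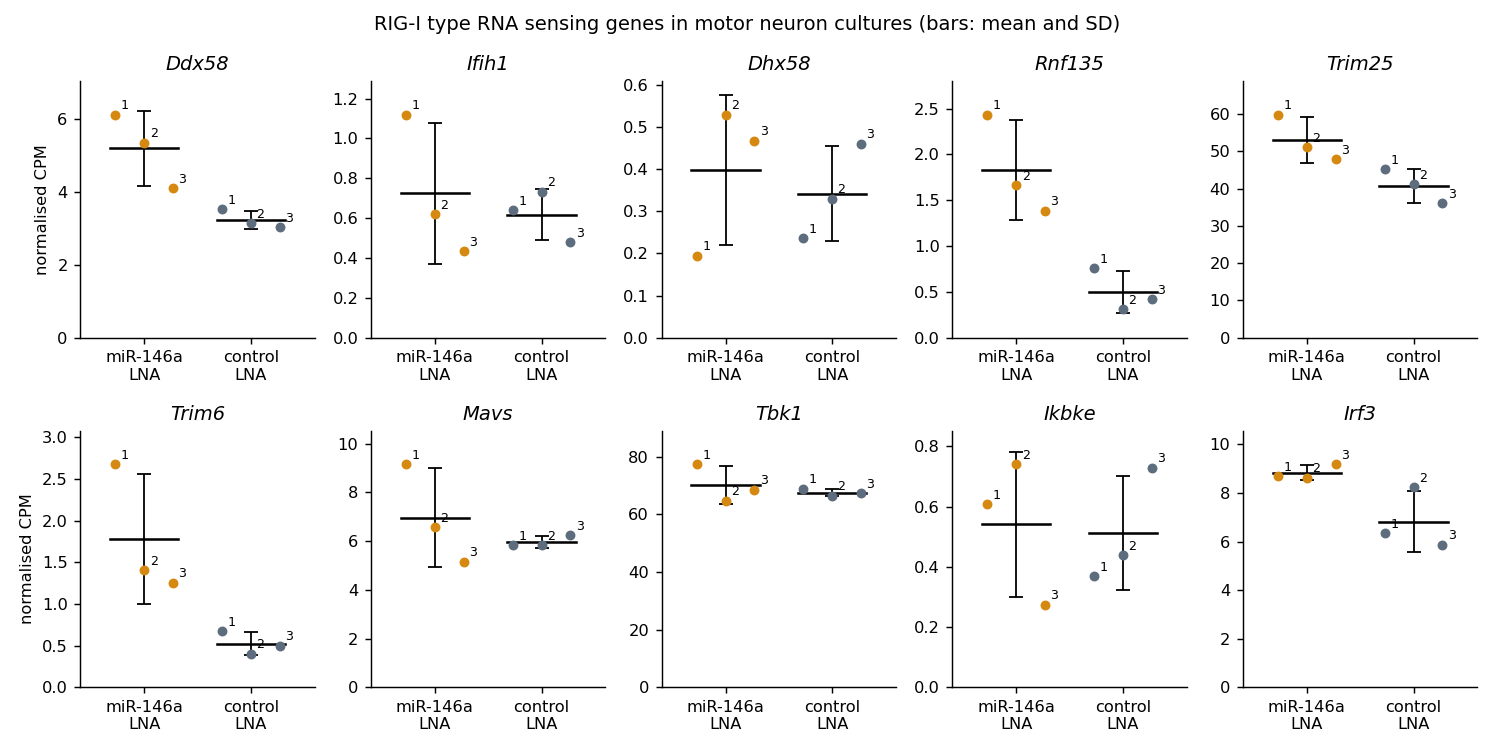
Normalised CPM (vertical axes, from 0) of the 10 genes in cultures given the miR-146a LNA (orange, n = 3) and the control LNA (grey, n = 3); bars show the mean and SD, and points are libraries numbered by replicate. The groups lie apart for Ddx58, Rnf135, Trim25, Trim6 and Irf3, and miR-146a LNA replicate 1 is the highest for Rnf135 and Trim6.

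Replicate 1 of the miR-146a LNA was the highest culture for Ddx58, Ifih1, Rnf135, Trim25, Trim6, Mavs and Tbk1, and had the lowest total count of the cultures, 40647549. It also held the highest sum of 9 pluripotency and progenitor markers, 91.7 normalised CPM against 74.8 and 75.2 in its group and 57.1 to 66.4 after the control LNA. Without it the log2 fold changes were 1.61 for Rnf135, 1.34 for Trim6, 0.55 for Ddx58 and 0.28 for Trim25, and Ddx58 and Trim25 lost their calls. The calls of Ddx58 and Trim25 were also lost without control LNA replicate 2 or 3, and that of Ddx58 also without miR-146a LNA replicate 2 or control LNA replicate 1. Microglia markers summed to 29.7 to 33.9 normalised CPM after the miR-146a LNA and 25.9 to 26.9 after the control LNA. Of the 10 markers 9 were below 1 CPM in every culture, with P2ry12 and C1qa at 0 counts after the miR-146a LNA and C1qa, C1qb and C1qc at 0 after the control LNA. Of the 9 pluripotency and progenitor markers 7 passed the filter in cultures, and 5 of these had a positive fold change, against 51.5% of all genes. edgeR called 2 of the 7 higher, Nes and Top2a (log2 fold changes 0.41 and 0.72), against 2.4% of all genes. Pax6 (-0.45) and Sox2 (-0.29) were negative. The part of progenitor markers in the culture values was not tested.

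The difference between the miR-146a LNA effect in cultures and the KO effect in cords was estimated as an interaction over all 19 libraries. Since the genes were chosen on their culture values, these differences are a description and nothing is read from them. For Rnf135 the LNA effect exceeded the KO effect by 1.42 on the log2 scale (SE 0.36; edgeR adjusted p = 0.0447), and it was the 1 gene of the 10 called, where 1.75% of 24152 genes were called in either direction and 0.497% higher. That call was kept on leaving out KO replicate 7, KO replicate 9, miR-146a LNA replicate 3 or control LNA replicate 1, and lost on leaving out any other library, over an adjusted p of 0.0123 to 0.154. For Ddx58 the difference was -0.07 (SE 0.41; edgeR adjusted p = 0.975). The difference for Trim6 was 1.46 (SE 0.995; edgeR adjusted p = 0.534), but 0.82 without WT replicate 1 and 2.35 with limma. For Ikbke it was -1.41 (SE 0.91; edgeR adjusted p = 0.511), but -0.81 without KO replicate 7 and -0.63 with limma.

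**Figure D4:**
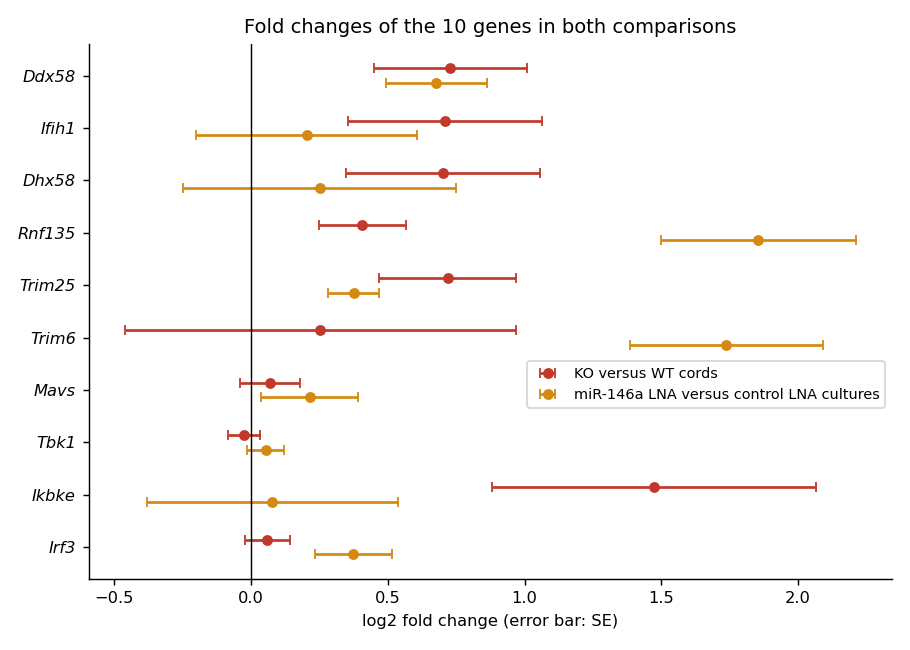
Log2 fold changes of the 10 genes (horizontal axis, points with SE bars) for KO versus WT cords (red) and for miR-146a LNA versus control LNA cultures (orange). Ddx58 is at 0.73 in cords and 0.68 in cultures, while Rnf135 is at 0.41 in cords and 1.86 in cultures and Ikbke at 1.47 in cords and 0.08 in cultures.

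Compared per length, on the TPM scale, Tbk1 was the most abundant of the 10 genes in every group. Its TPM averaged 34.7 ± 3.07 in KO cords (SD, n = 9), 33.9 ± 2.21 in WT cords (SD, n = 4), 67.9 ± 6.11 after the miR-146a LNA and 65.5 ± 1.18 after the control LNA (SD, n = 3 each). In WT cords the order then ran Irf3 (22.4 TPM), Mavs (16.3), Trim25 (6.63), Rnf135 (5.08), Ddx58 (3.38), Ifih1 (2.55), Dhx58 (2.48), Ikbke (0.991) and Trim6 (0.207), with ranges that overlapped only between Ifih1 and Dhx58 among neighbours. KO cords kept the same order of means, but all neighbours overlapped except Tbk1 above Irf3 and Ikbke above Trim6.

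Cultures had a different order, and since cords and cultures were prepared from different material no test was made between them. Trim25 was second, at 34.9 ± 4.24 TPM after the miR-146a LNA and 26.9 ± 3.02 after the control LNA, followed by Irf3 and Mavs, whose ranges overlapped. Irf3 averaged 9.71 TPM after the miR-146a LNA and 7.52 after the control LNA, and Mavs 7.89 after the miR-146a LNA and 6.77 after the control LNA. The double-stranded RNA sensors were low, with Ddx58 at 2.78 ± 0.571 TPM after the miR-146a LNA and 1.74 ± 0.139 after the control LNA, and Ifih1 at 0.337 ± 0.165 TPM after the miR-146a LNA and 0.287 ± 0.0600 after the control LNA. Ikbke was lowest in both culture groups, at 0.228 ± 0.104 TPM after the miR-146a LNA and 0.216 ± 0.0796 after the control LNA. Its range overlapped that of Ifih1 in each.

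**Figure D5:**
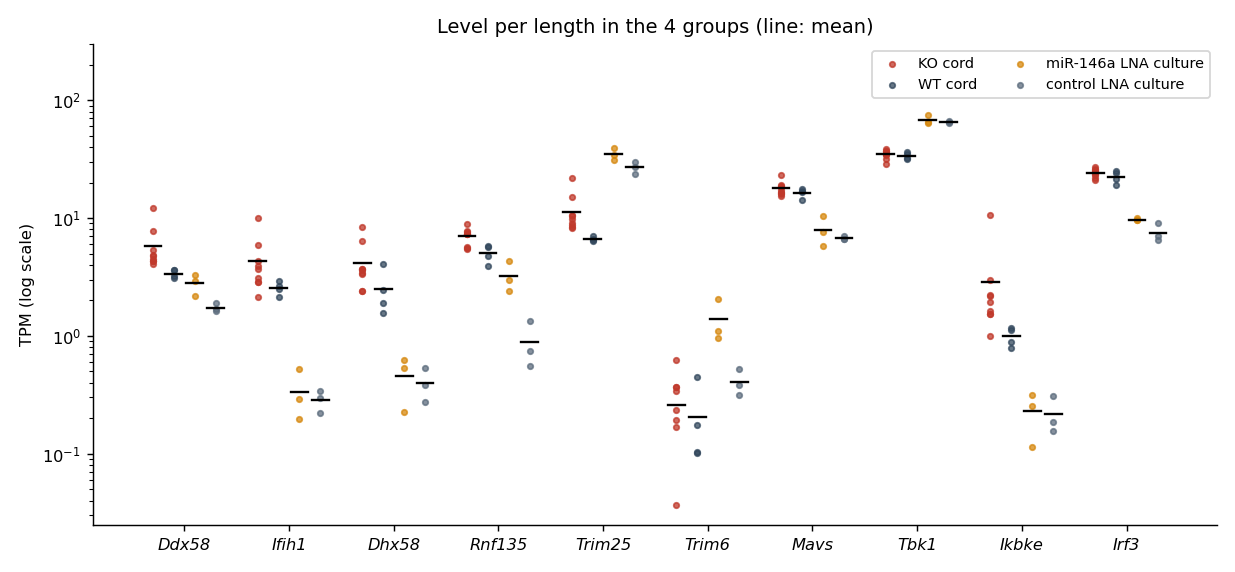
TPM on a log scale (vertical axis) of the 10 genes (horizontal axis) in KO cords, WT cords, miR-146a LNA cultures and control LNA cultures, in that order within each gene; points are libraries and lines are means, and the KO library with Trim6 at 0 is not drawn. Tbk1 is highest in all groups, and Ifih1, Dhx58 and Ikbke are lower in cultures than in cords.

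Other genes of the pathway were described by list. Of 39 tested interferon-stimulated genes, a list that includes Ifih1, 38 had a positive fold change in cords, against 53.1% of all genes, with a median log2 fold change of 1.05. edgeR called 0, at an unadjusted p below 0.05 31 were higher and 0 lower, and DESeq2 called 8 higher. Over all genes 7.53% were higher and 6.8% lower at that p, and DESeq2 called 1.4% higher. Cxcl10, a chemokine that attracts T cells, averaged 2.89 ± 1.87 normalised CPM in KO cords (SD, n = 9) and 0.595 ± 0.111 in WT cords (SD, n = 4). Mx1, an antiviral GTPase, averaged 1.00 ± 0.634 in KO cords and 0.253 ± 0.173 in WT cords. Cxcl10 (adjusted p = 0.00386) and Mx1 (adjusted p = 0.0262) were among the genes called by DESeq2, where edgeR gave 0.292 for both.

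Ifnb1, the interferon gene that IRF3 induces, had 1 count in all KO cords together and 0 in WT cords and in both culture groups. Of 26 interferon ligand, receptor and signalling genes in the tables, 11 passed the filter, of which 10 had a positive fold change in cords and 4 were higher at an unadjusted p below 0.05 (Usp18, Irf9, Ifnar2 and Il10rb, log2 fold changes 1.13, 0.67, 0.51 and 0.62). edgeR and DESeq2 called 0 of them, while over all genes 53.1% were positive and 7.53% were higher at that unadjusted p. Irf7, the interferon-induced relative of Irf3, stood at 4.04, 7.64 and 30.2 normalised CPM in the lowest, median and highest KO cord, against 4.04, 3.01, 3.65 and 4.58 in the WT cords (adjusted p = 0.3 with edgeR), with its highest value again in KO replicate 7.

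Other nucleic acid sensors gave 25 of 28 positive fold changes in cords, with a median log2 fold change of 0.80. edgeR called 0, at an unadjusted p below 0.05 14 were higher and 0 lower, and DESeq2 called 6 higher. Over all genes 53.1% were positive, 7.53% were higher and 6.8% lower at that p, and DESeq2 called 1.4% higher. Oas1a, Oas2, Oas3, Oasl2, Zbp1 and Eif2ak2 are in both this list and the interferon-stimulated genes, so the lists are not separate observations. The 4 with the smallest p were Tlr7 and Tlr9, endosomal receptors for RNA and DNA, Ifi204, a DNA sensor, and Oas3, an activator of RNase L, with log2 fold changes of 1.90, 1.31, 3.34 and 2.74. Tlr7 averaged 5.25 ± 3.60 normalised CPM in KO cords (SD, n = 9) and 1.41 ± 0.368 in WT cords (SD, n = 4). Signalling partners of MAVS gave 16 of 23 positive fold changes, with 6 higher at an unadjusted p below 0.05, 0 lower and 0 called by edgeR, and DESeq2 called 1, Irf5. Ripk1, Irf5, Tmem173 (the adaptor STING) and Irf7 had the smallest p, with log2 fold changes of 0.59, 1.21, 1.25 and 1.49, while Traf3, the ligase that links MAVS to TBK1, averaged 103 ± 8.02 normalised CPM in KO cords and 107 ± 5.44 in WT cords.

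Regulators of RIG-I outside the 10 gave 13 of 31 positive fold changes in cords, a median of -0.01, with 2 higher (Lrrc25 and Trim14) and 1 lower (Prkra) at an unadjusted p below 0.05, 0 called by edgeR and 1, Lrrc25, by DESeq2. Reported miR-146a targets gave 14 of 16 positive fold changes, a median of 0.39, with 7 higher at an unadjusted p below 0.05 and 0 lower, 0 called by edgeR and 3 by DESeq2 (Fas, Ptgs2 and Irf5). Beside both lists, the shares over all genes were 53.1% positive, 7.53% higher and 6.8% lower at that p, and 1.4% called higher by DESeq2. Fas, a death receptor, Ptgs2, the inducible cyclooxygenase, Irf5 and Tlr2 had the smallest p, with log2 fold changes of 1.080, 2.22, 1.21 and 1.59. None of these genes held a miR-146a seed match in any annotated 3′ UTR. Microglia markers stood higher in the same KO libraries, and their part in these lists was not tested.

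In the cultures, 12 of 29 tested regulators of RIG-I had a positive fold change, against 51.5% of all genes, with a median log2 fold change of -0.02. Of the 29, edgeR called 3 higher, Nlrx1, Anxa2 and Prkra, against 2.4% of all genes. Called lower were 2 of the 29, Smurf1 and Usp4, against 6.16% of all genes. Apart from Nlrx1, their log2 fold changes were small, at 0.20 for Anxa2, 0.24 for Prkra, -0.30 for Smurf1 and -0.17 for Usp4. Nlrx1, a mitochondrial protein reported to hold MAVS in check, stood at 1.73, 1.72 and 0.951 normalised CPM after the miR-146a LNA, against 0.505, 0.769 and 0.537 after the control LNA. Its groups did not overlap, and its log2 fold change was 1.28 (SE 0.33; edgeR adjusted p = 0.0239). In cords Nlrx1 averaged 10.7 ± 1.46 normalised CPM in KO libraries (SD, n = 9) and 10.3 ± 1.29 in WT libraries (SD, n = 4), and the difference between the LNA and KO effects was 1.19 (SE 0.27; edgeR adjusted p = 0.0251).

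Of the MAVS partners 8 of 22 had a positive fold change in cultures, against 51.5% of all genes, with a median log2 fold change of -0.04. edgeR called 1 of the 22, Casp8, which was higher, against 2.4% of all genes called higher. DESeq2 called 0 of the 22 and gave Casp8 no adjusted p. Casp8, a protease of the MAVS complex and of cell death, averaged 0.815 ± 0.0538 normalised CPM after the miR-146a LNA and 0.326 ± 0.0829 after the control LNA (SD, n = 3 each). Interferon-stimulated genes had a positive fold change for 24 of 25 tested, against 51.5% of all genes, with a median log2 fold change of 0.445. At an unadjusted p below 0.05, 12 were higher and 0 lower, where 9.81% of all genes were higher and 13.1% lower. edgeR called 4 of the 25 higher, where it called 2.4% of all genes higher, and 0 lower, and DESeq2 called 6 higher. The 4 were Irgm1, Ifi35, Dtx3l and Cmpk2, with log2 fold changes of 0.95, 0.88, 0.62 and 0.37. Irgm1, a GTPase of autophagy and defence, averaged 7.73 ± 1.195 normalised CPM after the miR-146a LNA and 3.99 ± 1.04 after the control LNA. edgeR called 0 of 20 tested nucleic acid sensors (2 higher and 0 lower at that unadjusted p, 0 by DESeq2) and 0 of 14 reported targets (0 higher and 3 lower, 0 by DESeq2). Of 11 interferon pathway genes edgeR called 0 and DESeq2 1, Irf9. At that unadjusted p, 2 of these were higher, Irf9 and Jak1, and 1 lower, Ifnar1, with log2 fold changes of 0.27, 0.10 and -0.16.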

How the data were processed

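RNA depleted of ribosomal RNA was sequenced in 13 spinal cord libraries and 6 motor neuron culture libraries of mouse. Per the submitters' processing notes, reads were aligned to GRCm38 with STAR 2.7.9a1 and counted per gene with featureCounts. The strand setting is not given in the sources used here. Each table holds whole-number counts as the authors deposited them, used for every test. It also holds CPM deposited by the authors, which scales counts by their sum, and TPM deposited by the authors, used for levels between genes. FPKM deposited by the authors, corrected for gene length, entered no result. Symbols came from GENCODE M21 (GRCm38), found for 55141 genes (99.4%), and 3′ UTRs from the same annotation. Promoter and microRNA sequences came from RefSeq tables of GRCm38.p6.

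Libraries were grouped by label, and cord replicate numbers are names in accession order. No pair within a group matched within sampling noise (smallest chi-square per degree of freedom 6.42). edgeR 4.0.16 in R 4.3.3 fitted its robust quasi-likelihood test to the 2 groups of each comparison, with its default filter on low counts, TMM scaling, Benjamini-Hochberg adjustment over all tested genes and a threshold of 0.05, and to all 19 libraries for the interaction. Standard errors come from the fold change and the F value. The procedure was tested on simulated data. Alternatives were limma 3.58.1 (voom, quality weights), DESeq2 1.42.0, other scalings and filters, 1 fit over all libraries, a block on the culture replicate number and omission of libraries. Likeness used log2 of normalised CPM plus 0.1, over genes of at least 1 normalised CPM.

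The 10 genes, the lists of other pathway genes and the markers were chosen with earlier results of these data known. Outside the 10, the text names the 4 genes of each list with the smallest p in either comparison, Ifnb1, Irf7, Traf3, Traf6, Irak1 and Nlrx1, the 5 genes nearest to Ddx58, overlapping genes, and genes that set libraries apart; results for some genes are not reported here. The labels do not say what a replicate number of the cultures shares, and same-numbered libraries showed no sign of pairing.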

Additional observations from a re-analysis of the deposited data

Results flagged for a closer look

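Of 20 groups of cord values tested for a library far from the others, 3 held one. The groups share the same libraries, so no chance rate is set beside this count. Ikbke in KO cords had its highest value, 30.1 normalised CPM, in KO replicate 7, with a gap to the next library of 0.792 of the whole range. Ifih1 in KO cords had its highest value, 25.7 normalised CPM, in the same library (0.496 of the range). Mavs in WT cords had its lowest value, 15.0 normalised CPM, in WT replicate 1 (0.904 of the range). KO replicate 7 is the library with muscle actin and the highest microglia marker sum, whose part in its values was not tested.

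The effect of the miR-146a LNA on Rnf135 exceeded that of the KO by 1.42 on the log2 scale (SE 0.36, adjusted p = 0.0447 with edgeR's quasi-likelihood test of the interaction). Rnf135 was among the genes chosen on their culture values, so this is a description that supports nothing, and the call was lost on leaving out any of 15 of the 19 libraries in turn.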

How the results depend on the processing

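In cords, 0 of the 10 genes were called under any of the 8 other settings or 13 omissions of a library. Called genes in cords were 381 with DESeq2, 3 with limma, 2 with all libraries in 1 fit, 8 without KO replicates 7 and 9 together and 0 to 2 without any 1 library (2 without KO replicate 7 and 2 without KO replicate 9). Trim6 turned in sign with limma (-0.63) and without KO replicates 7 and 9 together (-0.10). Leaving out 1 library moved Tbk1 over -0.053 to 0.0046 and Irf3 over -0.010 to 0.10. In cultures, called genes were 632 with all libraries in 1 fit and 778 to 1985 without any 1 library (778 without control LNA replicate 2, 1059 without control LNA replicate 1). Called among the 10 were 1 (Rnf135) with all libraries in 1 fit and 2 to 4 without any 1 library, Rnf135 and Trim6 being called each time. Sign turned within the range over omissions for Ifih1 (-0.22 to 0.47), Dhx58 (-0.0056 to 0.55), Mavs (-0.020 to 0.39), Tbk1 (-0.017 to 0.11) and Ikbke (-0.24 to 0.41). For the interaction, called genes among the 10 were 0 without a filter on low counts and 0 to 1 without any 1 library; Ddx58 was 0.18 with limma and -0.18 to 0.13 over omissions, and Mavs -0.090 to 0.30. The cause of these shifts was not tested.

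Same-numbered culture deviations correlated at 0.0304, -0.109 and 0.0061, and different-numbered ones at -0.139 to 0.141. This shows no sign of pairing by number, but cannot establish how the cultures were set up. A replicate block called 1793 genes and the same 4 of the 10.

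Seed matches stayed at 2 of 10 over any annotated UTR (23.7% of tested genes). Depth limits Trim6 in cords and Ifih1, Dhx58 and Ikbke in cultures.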
